A study of Mus musculus with 4 samples.

Results

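Genes that detect and mend DNA damage were examined in blood stem cells of a mouse model of myelodysplastic syndrome. The set was a list of 41 gene symbols, 41 of the 24016 in the deposited tables, each represented by its transcript with the highest total count over all libraries. All 41 passed the filter on low counts. RNA had been sequenced from hematopoietic stem cells (HSCs) sorted from bone marrow of C57BL/6 mice at 4 months of age as lineage-negative cells that carry Sca-1, c-Kit and CD150 and lack CD34 and Flt3. Wild-type (WT) mice gave 2 libraries. NHD13+ mice, transgenic for a NUP98-HOXD13 fusion gene, gave the other 2. In the published line this transgene is driven by Vav regulatory elements, so all blood cells can express it.

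DNA breaks across both strands are rejoined either by homologous repair, which copies an intact sister strand and works mainly in S and G2 phase, or by end joining, which ligates the ends directly and works at any phase. Mismatch repair removes replication errors, excision repair removes damaged bases or bulky adducts from one strand, and the Fanconi pathway unhooks crosslinks between strands. The kinases Atm and Atr signal the damage to checkpoint kinases. Quiescent HSCs rely largely on end joining, and loss of Fanconi genes is known for marrow failure.

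With 1 transcript per gene the total was 42664018 and 37070939 counts for WT, and 35025974 and 48423689 for NHD13. The 41 repair genes took 0.173 and 0.179 percent of them in WT and 0.226 and 0.206 percent in NHD13. Hoxd13, the mouse counterpart of a fusion partner, was counted 14 and 3 times in WT, against 65 and 78 times in NHD13. Replicate libraries were not copies of one another: the chi-square between them averaged 36.6 per gene for WT and 62.9 for NHD13. Separate animals are not stated for replicate libraries, so every SD and p-value reflects the spread among these libraries alone, which may be technical. RNA is a bulk measure here, in which more cells of a kind and more RNA per cell cannot be told apart.

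Most repair genes had more RNA in NHD13 than in WT HSCs, by modest amounts, and 1 of them passed the test. Neil3, a glycosylase that removes oxidised bases and helps unhook crosslinks, rose 1.99-fold. Levels are given as CPM, a count relative to the TMM-scaled library total, and the test was edgeR's quasi-likelihood test of NHD13 against WT over 14853 genes. A gene was called at a Benjamini-Hochberg adjusted p under 0.05. The called share of the list, 1 of 41, was near the background of 2.07 percent of all genes called higher (4.28 percent in either direction). A log2 fold change above 0 was seen for 39 of 41 repair genes, against 50.1 percent of all genes. Both NHD13 libraries lay above both WT libraries for 27 of 41, against 30.1 percent, and both lay below for 1, against 30.3 percent. An unadjusted p under 0.05 with a higher level was reached by 21 of 41, against 12.9 percent of all genes, and with a lower level by none (26.8 percent of all genes in either direction). The list median was 0.39 on the log2 scale, against 0.00 over all genes tested (0.0013).

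DESeq2 called 16 of the 41, all higher, where it called 8.2 percent of all genes higher and 17.5 percent in either direction. The edgeR count was 0 without WT library 1, WT library 2 or NHD13 library 1, with 7, 10 and 11 repair genes at an unadjusted p under 0.05, and 0, 0 and 0.765 percent of all genes called higher. DESeq2 called 1, 3 and 1 repair genes in those sets, against 3.67, 2.91 and 3.51 percent of all genes called higher. Without NHD13 library 2 the edgeR count was 4, against 2.88 percent of all genes, and the DESeq2 count was 11, against 6.98 percent.

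**Figure D1:**
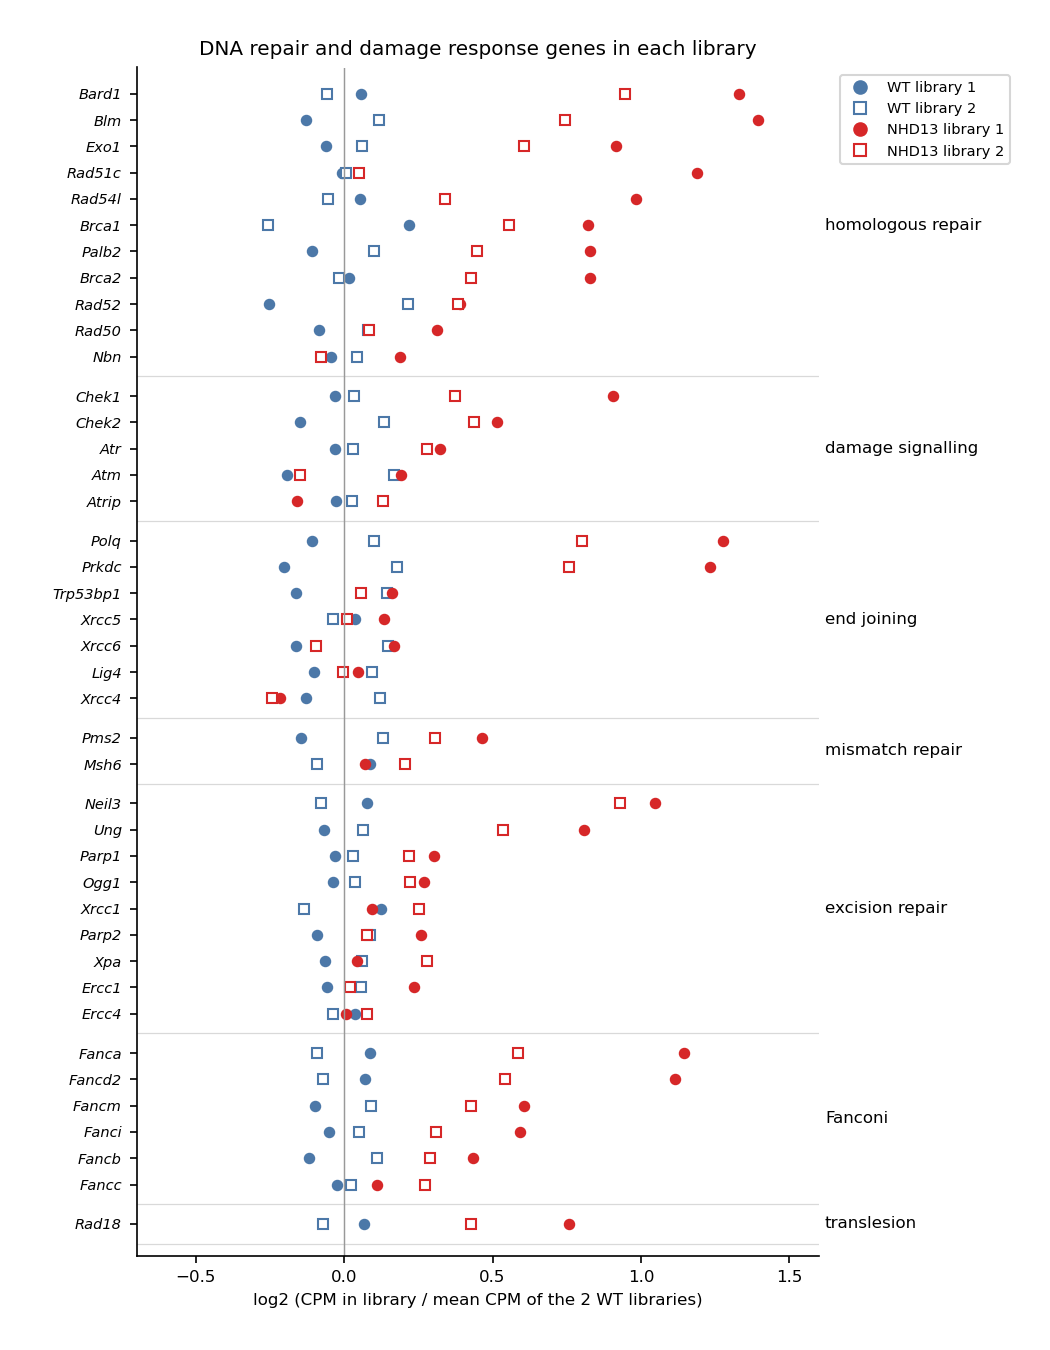
Level of each of the 41 repair genes in each library, as the log2 ratio of its CPM to the mean of the 2 WT libraries, grouped by repair role (circles: library 1, squares: library 2; blue: WT, red: NHD13). Both red points lie to the right of both blue points for 27 genes, and Xrcc4 alone has both red points to the left.

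The roles differed in how far their genes stood above WT. Medians on the log2 scale were 0.69 for 11 homologous repair genes, 0.49 for 6 Fanconi genes, 0.30 for 5 damage signalling genes and 0.26 for the 2 mismatch repair genes. They were 0.17 for 9 excision repair genes and 0.07 for 7 end joining genes. These medians are a description and were not tested against each other. Without WT library 1 the end joining median was -0.04.

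**Figure D2:**
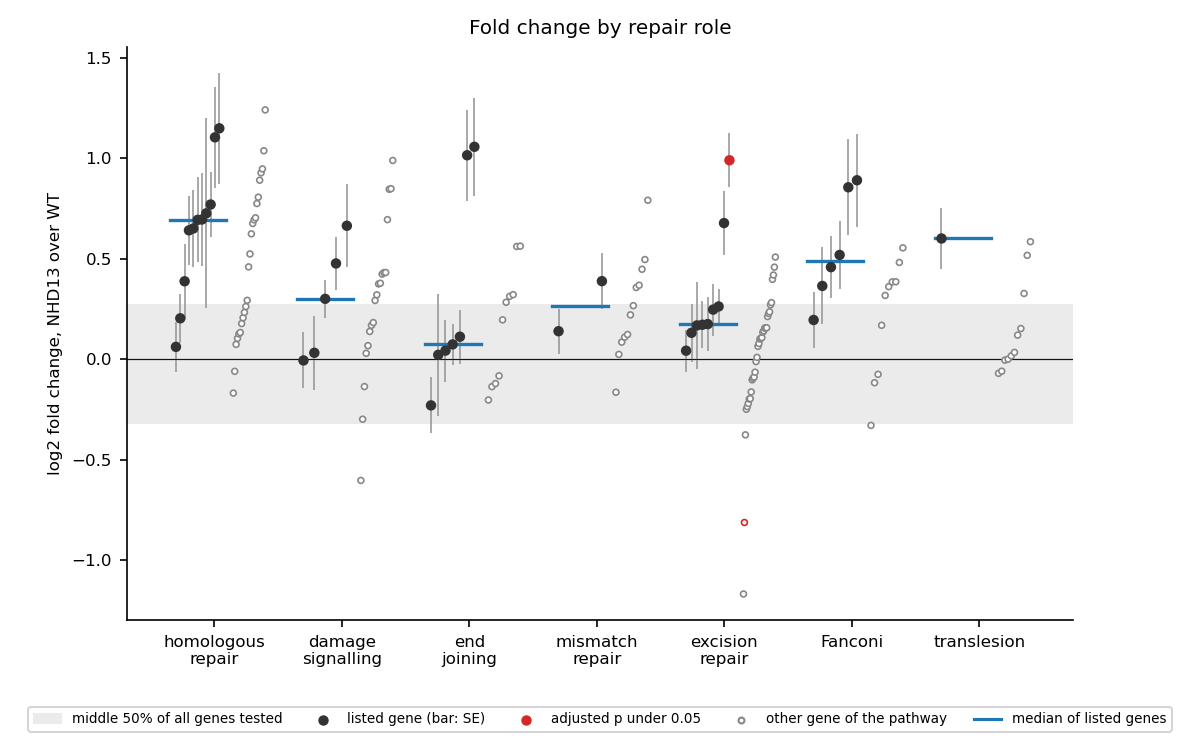
Log2 fold change of NHD13 over WT for the 41 repair genes by role (filled points, with standard error; blue line: median) and for other genes of the same pathways (open points); the grey band holds the middle 50% of all genes tested. Homologous repair has the highest median of the groups with several genes, Neil3 is the red filled point and Mgmt the red open point.

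Homologous repair genes were above WT in both NHD13 libraries for 10 of 11 genes, against 30.1 percent of all genes. For Rad50 and Rad51c, counted among the 10, the lower NHD13 library was only 1.004 and 1.031 times the higher WT library. Under the default filter edgeR called none of the 11 genes, and DESeq2 called Brca1, Brca2, Bard1, Palb2, Rad54l, Blm and Exo1. Of all genes, DESeq2 called 8.2 percent higher and 17.5 percent in either direction. Bard1, which forms the ubiquitin ligase with Brca1, was at 3.61 and 3.34 CPM in WT and 8.73 and 6.69 in NHD13 (log2 fold change 1.15 ± 0.28 SE, edgeR adjusted p 0.0849). Brca1, which directs broken ends toward resection, was at 25.1 and 18.0 against 38.1 and 31.7 CPM. Its log2 fold change was 0.69 ± 0.21 (adjusted p 0.127). The groups did not overlap for either gene, and Bard1 had the largest log2 fold change of the 41.

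Blm, a helicase that dissolves joined DNA molecules, was at 19.9 and 23.5 CPM in WT and 57.0 and 36.3 in NHD13 (log2 fold change 1.10 ± 0.25, adjusted p 0.0782). Exo1, a nuclease that resects ends and also acts in mismatch repair, was at 20.2 and 21.9 against 39.7 and 32.0 CPM (0.77 ± 0.16, adjusted p 0.0680). Rad54l, a motor protein that acts in strand exchange, was at 38.4 and 35.7 against 73.2 and 46.9 CPM (0.69 ± 0.23, adjusted p 0.146). For these genes NHD13 library 1 was the higher of the NHD13 libraries, and the lower one still exceeded both WT libraries. Without NHD13 library 2, edgeR called Blm (adjusted p 0.0363) and Rad54l (0.0379). Exo1 was called when no filter on low counts was used (edgeR adjusted p 0.0403), where 2.56 percent of all genes were called higher.

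Brca2, a mediator of strand exchange, was at 26.1 and 25.5 CPM in WT and 45.7 and 34.7 in NHD13 (log2 fold change 0.64 ± 0.17, adjusted p 0.103). Palb2, the bridge between Brca1 and Brca2, was at 15.8 and 18.3 against 30.4 and 23.3 CPM (0.65 ± 0.19, adjusted p 0.118). Both showed the same order of libraries, NHD13 library 1 above library 2 above WT. Rad51c, which also acts in homologous repair, stood at 5.53 CPM in NHD13 library 1 but at 2.51 in library 2, next to 2.41 and 2.44 in WT. Its log2 fold change of 0.73 ± 0.47 was 0.06 without NHD13 library 1.

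The end-sensing genes of the same pathway were nearer to WT. Rad50, the structural subunit of the complex that tethers broken ends, had a log2 fold change of 0.20 ± 0.12, and its partner Nbn had 0.06 ± 0.13, with overlapping groups for Nbn. Rad52, a single-strand annealing factor, had 0.39 ± 0.19, with both NHD13 libraries at 42.4 and 42.1 CPM above 27.1 and 37.5 in WT.

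Among the damage signalling genes the checkpoint kinases stood further above WT than the kinases that activate them. Chek1, the effector kinase of Atr, was at 26.0 and 27.2 CPM in WT and 49.8 and 34.5 in NHD13 (log2 fold change 0.66 ± 0.21, edgeR adjusted p 0.130). Chek2, the effector kinase of Atm, was at 40.9 and 49.8 against 64.8 and 61.4 CPM (0.48 ± 0.13, adjusted p 0.109). Atr was at 52.97 and 55.2 against 67.5 and 65.6 CPM (0.30 ± 0.09, adjusted p 0.134). In all 3 genes both NHD13 libraries lay above both WT libraries, as they did for 30.1 percent of all genes. None of the 3 was called by edgeR with all libraries. The share of all genes that DESeq2 called higher was 8.2 percent. DESeq2 called Chek1 and Chek2, and edgeR called Chek1 without NHD13 library 2 (adjusted p 0.0471). Atm had 0.03 ± 0.18 and Atrip, the partner that brings Atr to exposed single strands, -0.01 ± 0.14. Their groups overlapped. Atm was at -0.14 without WT library 1 and without NHD13 library 1, and Atrip was at 0.02 without WT library 2 and 0.14 without NHD13 library 1.

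End joining split into 2 genes far above WT and 5 close to it. Prkdc, the catalytic subunit of DNA-PK, was at 19.8 and 25.7 CPM in WT and 53.5 and 38.5 in NHD13 (log2 fold change 1.01 ± 0.23, edgeR adjusted p 0.0759, and 0.0439 when no filter on low counts was used). Polq, the polymerase of an end joining route that uses short matching stretches, was at 6.64 and 7.69 against 17.4 and 12.5 CPM (1.06 ± 0.24, adjusted p 0.0793). Both NHD13 libraries exceeded both WT libraries for each gene, as they did for 30.1 percent of all genes. The Ku subunits, which bind broken ends first and recruit DNA-PK, had log2 fold changes of 0.07 ± 0.10 (Xrcc5) and 0.04 ± 0.15 (Xrcc6), with overlapping groups.

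The ligation step was also near WT. Xrcc4, the scaffold of the ligase, was at 33.6 and 39.9 CPM in WT and 31.6 and 31.0 in NHD13 (log2 fold change -0.23 ± 0.14, adjusted p 0.350). It was the one gene of the 41 with both NHD13 libraries below both WT libraries. Lig4, the ligase itself, had 0.02 ± 0.30 at 3.13 to 3.58 CPM in all libraries, and Trp53bp1, which shields ends from resection, had 0.11 ± 0.13. The exons of Trp53bp1 overlap those of Tubgcp4 on the opposite strand over 22.1 percent of its length, and how strand was handled in the counting is not given in the sources used here.

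Ratios of counts between partner genes within a library do not depend on how libraries are scaled. They were computed for 10 combinations of genes whose proteins work in 1 complex, chosen with the values known, and they compare a combination between libraries, not the levels of its genes. The Prkdc count was 0.169 and 0.177 of the Xrcc6 count in WT and 0.363 and 0.313 in NHD13, a 1.95-fold difference. Against Xrcc5 it was 0.300 and 0.411 in WT and 0.759 and 0.594 in NHD13. By contrast the ratio of Xrcc5 to Xrcc6 was 0.562 and 0.431 in WT and 0.478 and 0.526 in NHD13, overlapping between groups.

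Bard1 to Brca1 went from 0.144 and 0.185 in WT to 0.229 and 0.211 in NHD13, and Fancd2 to Fanci from 0.518 and 0.437 to 0.684 and 0.560. Atrip to Atr was lower in NHD13, at 0.579 and 0.730 against 0.809 and 0.808. Brca2 to Palb2 overlapped between groups, at 1.64 and 1.39 in WT and 1.51 and 1.49 in NHD13. In all, both NHD13 ratios were higher for 5 combinations and lower for 2, and overlapped WT for 3. Higher or lower depends on which gene was made the numerator, and the Prkdc ratios to Xrcc5 and to Xrcc6 both count among the 5. Of single genes, 30.1 percent of all tested lay higher without overlap and 30.3 percent lower. No such share was computed for ratios of other genes. With 2 libraries against 2 the smallest exact two-sided permutation p is 0.333, so single ratios were not tested.

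**Figure D3:**
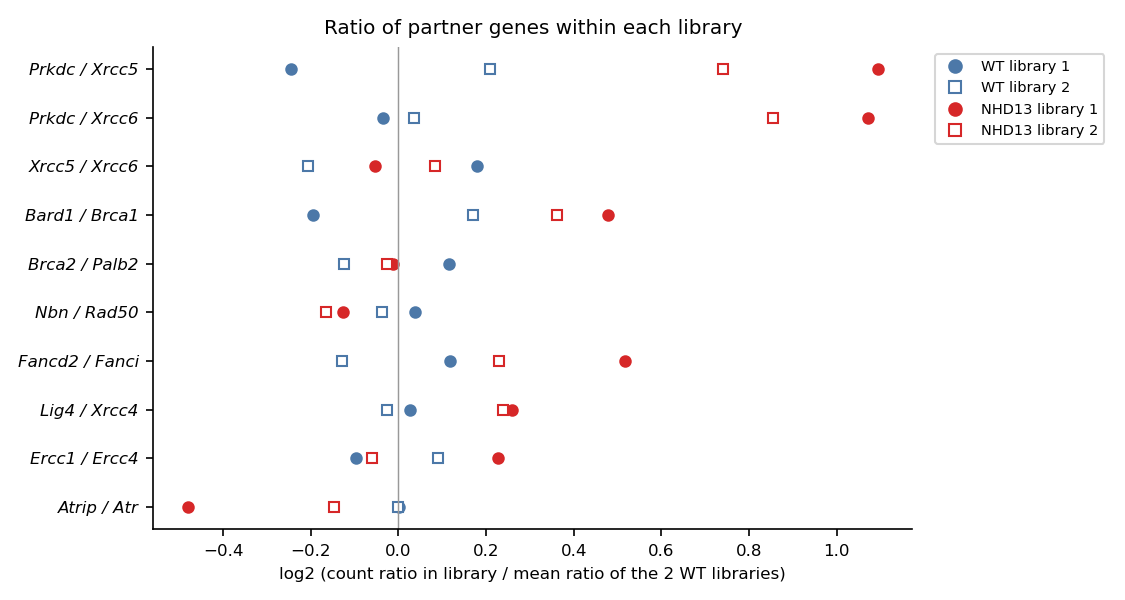
Ratio of counts between genes whose proteins share a complex, in each library, as the log2 ratio to the mean of the 2 WT libraries (circles: library 1, squares: library 2; blue: WT, red: NHD13). Prkdc over either Ku gene lies furthest to the right in NHD13, while Xrcc5 over Xrcc6 is mixed between groups.

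Neither mismatch repair gene was called by edgeR or DESeq2. Pms2, a subunit of the nicking complex, was at 40.4 and 48.9 CPM in WT and 61.6 and 55.1 in NHD13 (log2 fold change 0.39 ± 0.14, edgeR adjusted p 0.166). Msh6, which recognises mispaired bases, was at 90.4 and 80.0 against 89.4 and 98.1 CPM (0.14 ± 0.11, adjusted p 0.479). The groups overlapped for Msh6 and not for Pms2. With Exo1 counted as a mismatch repair gene the median of the group was 0.39.

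Of the excision repair genes, Neil3 and Ung had the largest fold changes. Neil3 was at 20.8 and 18.7 CPM in WT and 40.9 and 37.6 in NHD13, or 19.8 ± 1.495 (SD, n = 2) against 39.2 ± 2.30, which is 0.99 ± 0.13 on the log2 scale (edgeR adjusted p 0.0357). Its lower NHD13 library was 1.81 times its higher WT library. It was called by DESeq2 (2.23e-06) and limma-voom (0.0351). With the replicate number as a block its adjusted p was 0.0869. Leaving out a library gave 0.216 without WT library 1, 0.200 without WT library 2, 0.0999 without NHD13 library 1 and 0.0491 without NHD13 library 2, with log2 fold changes of 0.92 to 1.06. DESeq2 called it in each of these sets of 3 libraries, with adjusted p of 0.00307 to 0.0348.

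Ung, which removes uracil, was at 17.1 and 18.7 CPM in WT and 31.3 and 25.9 in NHD13 (log2 fold change 0.68 ± 0.16, adjusted p 0.0829). Ogg1, the glycosylase for oxidised guanine, had 0.25 ± 0.13, with 20.8 and 21.9 against 25.7 and 24.9 CPM. All 4 NHD13 values of Ung and Ogg1 lay above the WT values of the same gene, which held for 30.1 percent of all genes. Parp1, which senses nicks, was at 210.1 and 219 against 265 and 249.9 CPM (0.26 ± 0.09, adjusted p 0.148).

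The remaining excision repair genes overlapped between groups. Parp2, a relative of Parp1, and Xrcc1, the scaffold that gathers the nick-sealing enzymes, each had a log2 fold change of 0.17, with standard errors of 0.12 and 0.14. Of the nucleotide excision genes, Xpa, which checks the lesion, had 0.17 ± 0.22. The nuclease subunits Ercc1 and Ercc4 had 0.13 ± 0.14 and 0.04 ± 0.11.

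All 6 Fanconi genes had both NHD13 libraries above both WT libraries, against 30.1 percent of all genes. None was called by edgeR, and DESeq2 called Fanca and Fancd2, where it called 8.2 percent of all genes higher. Fanca, of the core complex, was at 14.4 and 12.8 CPM in WT and 30.1 and 20.4 in NHD13 (log2 fold change 0.89 ± 0.23, edgeR adjusted p 0.0988). Fancd2, which is ubiquitinated at crosslinks, was at 11.8 and 10.7 against 24.3 and 16.4 CPM (0.86 ± 0.24, adjusted p 0.110). Its partner Fanci was at 22.7 and 24.4 against 35.5 and 29.2 CPM (0.46 ± 0.15, adjusted p 0.149). For these genes NHD13 library 1 was again the higher one. Exons of Fanci overlap Polg on the opposite strand over 16.4 percent of its length, and those of Fanca overlap Zfp276 over 12.3 percent.

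Fancm, the translocase that anchors the core complex to DNA, was at 12.1 and 13.8 CPM in WT and 19.6 and 17.4 in NHD13 (log2 fold change 0.52 ± 0.17, adjusted p 0.141). The core complex genes Fancb and Fancc had 0.36 ± 0.19 and 0.19 ± 0.14. Rad18, the ubiquitin ligase that calls polymerases able to copy past lesions, was at 41.4 and 37.5 against 66.7 and 53.04 CPM (0.60 ± 0.15, adjusted p 0.0923). Its groups did not overlap.

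Other genes of these pathways, listed by role, were read from the same fit. Of 130 listed symbols, older names included, 120 were tested. DESeq2 called 19 of the 120, counted in either direction, against 17.5 percent of all genes. Mgmt, which strips alkyl groups from guanine, was the 1 called by edgeR. It fell by 0.81 ± 0.13 on the log2 scale (edgeR adjusted p 0.0454). Its level went from 28.3 and 27.8 CPM in WT to 15.98 in each NHD13 library. With library totals only its adjusted p was 0.0506, with transcripts summed 0.0586, with the replicate block 0.114, and without 1 library 0.0716 to 0.258, at log2 fold changes of -0.82 to -0.80. Of the 120, 89 had a log2 fold change above 0, against 50.1 percent of all genes, and the median was 0.18. The 2.22 percent of all genes called lower is the background for the edgeR call of Mgmt.

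By role, the medians on the log2 scale were 0.49 for 24 other homologous repair genes, 0.32 for 19 signalling genes, 0.34 for 10 Fanconi genes and 0.24 for each of 10 end joining and 12 mismatch repair genes. They were 0.09 for 34 excision repair genes and 0.03 for 11 translesion genes. In homologous repair the smallest p belonged to Rad54b, a relative of Rad54l (1.24 ± 0.22, edgeR adjusted p 0.0533), and Rbbp8, which starts resection (0.77 ± 0.16, 0.0641). In signalling they belonged to Rad9a, of the checkpoint clamp (0.43 ± 0.09, 0.0675), and Topbp1, the activator of Atr (0.69 ± 0.15, 0.0730). Primpol, which restarts stalled forks, had 0.52 ± 0.10 (0.0630) and Rev3l, a lesion-bypass polymerase, had 0.58 ± 0.13 (0.0787).

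In mismatch repair the smallest p belonged to Lig1, the ligase of replication (0.79 ± 0.20, edgeR adjusted p 0.0947), and Rfc5, of the clamp loader (0.37 ± 0.13, 0.166). Usp1, which removes ubiquitin from Fancd2, had 0.55 ± 0.18 (0.138) and the nuclease scaffold Slx4 had 0.38 ± 0.15 (0.190). Aplf, an end joining accessory factor, had the smallest p in end joining (0.56 ± 0.17, 0.122). Of the other pathway genes named here, edgeR under the default filter called Mgmt alone. DESeq2 called Rad54b, Rbbp8, Rad9a, Topbp1, Primpol, Rev3l and Lig1 among them, and edgeR with no filter called Rad54b, Rbbp8, Topbp1 and Primpol. Of all genes, DESeq2 called 8.2 percent higher and edgeR with no filter 2.56 percent. In all, edgeR with no filter called 6 other pathway genes, where it called 5.47 percent of all genes in either direction.

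The repair genes were also divided by phase of the cell cycle. This split was made with earlier results of these data known and is described without a test. Of the 41, 15 are known as genes expressed mostly in S and G2 phase, among them Brca1, Brca2, Bard1, Blm, Exo1, Chek1, Rad54l, Neil3, Polq and Ung. Their median log2 fold change was 0.69, with 14 of 15 above WT without overlap, against 30.1 percent of all genes, and Msh6 the exception. The other 26 had a median of 0.18, with 13 of 26 above WT without overlap and 1 below, against 30.1 and 30.3 percent of all genes. Prkdc was the largest among those 26.

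Lists of cell cycle genes outside the repair set moved in the same libraries. Set against the average of the 4 libraries, the median log2 level of the 15 S and G2 repair genes was -0.337 and -0.380 in WT and 0.546 and 0.148 in NHD13. For 37 S phase genes it was -0.249 and -0.360 against 0.481 and 0.074, and for 35 genes of G2 and mitosis -0.256 and -0.725 against 0.604 and 0.387. The other 26 repair genes had -0.175 and -0.057 against 0.170 and 0.093. In the S phase list 2 of 37 genes were called higher and in the mitosis list 8 of 35, with none lower, against 2.07 percent of all genes called higher and 2.22 percent lower. The part of cell cycle phase in the repair gene differences was not tested.

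**Figure D4:**
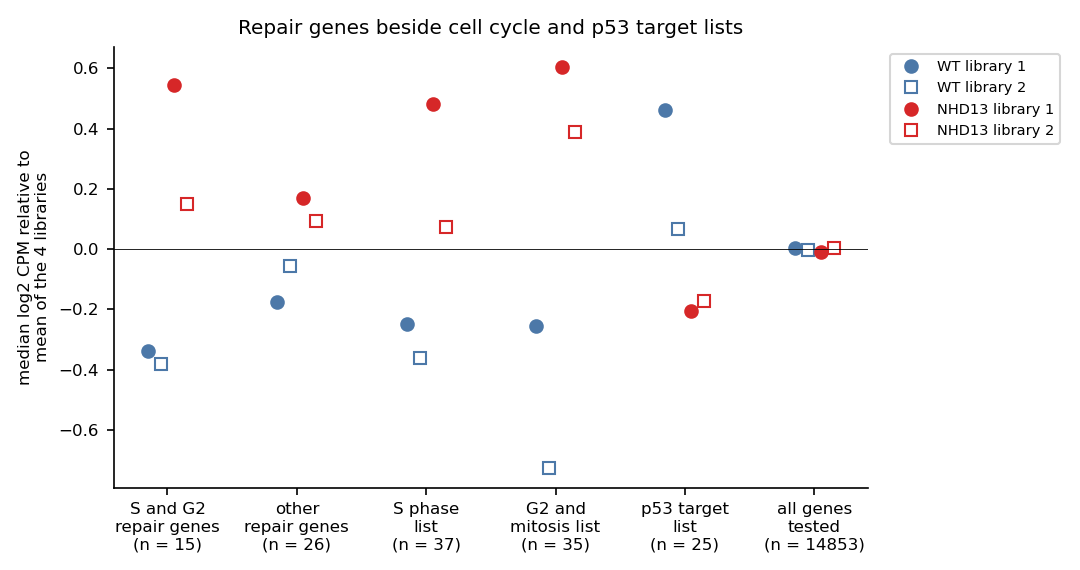
Median log2 CPM, relative to the mean of the 4 libraries, of the 15 repair genes of S and G2 phase, the other 26, the S phase, G2 and mitosis and p53 target lists and all genes tested, in each library (circles: library 1, squares: library 2; blue: WT, red: NHD13). The S and G2 repair genes and the S phase list rank the libraries in the same order, with NHD13 library 1 highest.

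NHD13 library 1 exceeded NHD13 library 2 for 35 of the 41 repair genes, against 47.8 percent of all genes tested. Without NHD13 library 1 the list median was 0.30 and without NHD13 library 2 it was 0.44. Targets of p53, which DNA damage can induce, had a median of -0.34 over 25 genes, with 3 called lower and none higher, against 2.22 and 2.07 percent of all genes. Their summed level was 2722 and 2372 CPM in WT and 1910 and 1914 in NHD13. Set against the average of the 4 libraries, their median log2 level was 0.460 and 0.066 in WT and -0.207 and -0.172 in NHD13. WT library 1 thus stood further from NHD13 than WT library 2.

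Markers of other blood cells differed between the same libraries. The summed level of 18 granulocyte and monocyte genes was 1145 and 1076 CPM in WT and 5289 and 1687 in NHD13, with none of the 18 at 0 counts in any library. The median log2 fold change was 2.47, with 4 called higher, against 2.07 percent of all genes, and 2 genes were below 0. Mpo was at 49.0 and 39.2 CPM in WT and 709.3 and 587.1 in NHD13. Ngp was at 94.3 and 70.1 against 915.5 and 132.2 CPM. For 18 lymphoid genes, of which 15 were tested, the summed level was 93.7 and 102.5 against 115 and 329.9 CPM. Pax5, Rag1 and Cd8a failed the filter on low counts. Of the 15, 1 was called higher and 4 were below 0, with a median of 1.82. Erythroid genes summed to 3911 and 4403 CPM in WT and 1998 and 2830 in NHD13, megakaryocyte genes to 1669 and 1585 against 805.9 and 1160, and stromal genes to 156.7 and 113.9 against 121.2 and 143.8. Their median log2 fold changes were 0.05 (1 of 14 called higher), -0.10 (1 of 9 called lower) and -1.19 (none of 11 called by edgeR, with 4 at an unadjusted p under 0.05). Mast cell and basophil genes summed to 40.1 and 23.1 against 139.5 and 118.4 CPM, with Cpa3 at 107 CPM in NHD13 library 2 and Ms4a2 at 111 CPM in NHD13 library 1. Of the 7 tested, 5 were below WT, Il4 and Fcer1a were called lower, and the median log2 fold change was -0.75. The 18 stem cell genes summed to 6674 and 7063 against 4142 and 4481 CPM, and 6 of them were called lower, against 2.22 percent of all genes. Their median log2 fold change was -0.89, with 2 of the 18 above 0. Gata2 was higher without overlap, at 0.61 on the log2 scale. Procr, Slamf1, Mecom and Fgd5 overlapped between groups. The part of these cells in the repair gene differences was not tested.

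Levels were compared between genes per length, with transcript lengths from GENCODE M21. Xrcc6 (55.4 and 68.8 CPM per kilobase in WT, 69.7 and 58.2 in NHD13), Parp1 (54.2 and 56.6, 68.4 and 64.5) and Parp2 (47.8 and 54.0, 60.9 and 53.7) had the highest levels per length of the set. Their ranges overlap, so no order among them is given. Lig4 (0.622 and 0.713, 0.689 and 0.666) and Rad51c (0.612 and 0.618, 1.40 and 0.636) were among the lowest, with Bard1 (0.638 and 0.590, 1.54 and 1.18). Within DNA-PK, Prkdc was at 1.56 and 2.03 CPM per kilobase in WT and 4.23 and 3.04 in NHD13, below Xrcc5 at 24.5 to 27.6 in all libraries. Such values assume even coverage along the transcript, which the tables do not show.

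Of the 41 genes, 13 had more than 1 transcript in the tables. The log2 ratio of NHD13 to WT differed by at most 0.03 between transcripts of a gene (Palb2), so the choice of transcript did not set the values. No repair gene shared its counts with a second symbol.

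Promoters were read for the genes present in the RefSeq table of GRCm38.p6, which held 36 of the 41. Each is 300 bases, 250 before the transcription start and 50 after it, 5′ to 3′ on the gene's strand. Letters known from promoters of S phase genes (E2F: TTTGGCGC, TTTCCCGC and TTCCCGCC, of which the last 2 overlap in 7 letters) and of mitotic genes (CHR: TTTGAA) were searched on both strands. At least 1 E2F sequence was in 10 of 36 promoters, or 27.8 percent, against 3.69 percent of the 27025 genes in the table and 6.63 percent of those tested here. It was in 6 of 13 S and G2 repair genes and in 4 of the other 23. The CHR letters were in 2 of 36, against 20.2 percent of genes in the table and 14.6 percent of those tested. The letters CCAAT, also searched, were in 19 of 36, against 41.1 percent of genes in the table and 42.5 percent of those tested. The median log2 fold change was 0.25 for repair genes with CCAAT and 0.46 for those without. A match of letters does not show that a factor binds there, and no test was made.

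The sequences below are shown because they belong to genes that differ in their values: Neil3, called higher by edgeR and DESeq2; Bard1, Brca2, Polq and Chek1, called higher by DESeq2 and not by edgeR; and Msh6, called by neither. Capitals mark E2F and CHR letters on either strand, and Neil3 has none in this window. They lie at chr8:53639016-53639315 (minus strand), chr1:71102923-71103222 (minus strand), chr5:150522371-150522670 (plus strand), chr16:37011536-37011835 (plus strand), chr9:36726609-36726908 (minus strand) and chr17:87974800-87975099 (plus strand) of GRCm38, not of mm9, the build of the processing notes.
Neil3: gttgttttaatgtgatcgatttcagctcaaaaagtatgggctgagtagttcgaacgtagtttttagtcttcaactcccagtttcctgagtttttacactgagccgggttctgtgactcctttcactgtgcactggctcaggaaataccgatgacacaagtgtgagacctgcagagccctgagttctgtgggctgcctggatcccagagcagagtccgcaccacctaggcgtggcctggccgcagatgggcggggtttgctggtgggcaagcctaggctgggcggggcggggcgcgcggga
Bard1: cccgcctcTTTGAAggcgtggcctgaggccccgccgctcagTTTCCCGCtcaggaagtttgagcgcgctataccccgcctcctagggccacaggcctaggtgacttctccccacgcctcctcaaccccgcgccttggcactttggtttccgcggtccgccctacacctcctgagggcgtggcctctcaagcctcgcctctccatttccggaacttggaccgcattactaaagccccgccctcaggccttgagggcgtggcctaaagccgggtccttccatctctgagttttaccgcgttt
Brca2: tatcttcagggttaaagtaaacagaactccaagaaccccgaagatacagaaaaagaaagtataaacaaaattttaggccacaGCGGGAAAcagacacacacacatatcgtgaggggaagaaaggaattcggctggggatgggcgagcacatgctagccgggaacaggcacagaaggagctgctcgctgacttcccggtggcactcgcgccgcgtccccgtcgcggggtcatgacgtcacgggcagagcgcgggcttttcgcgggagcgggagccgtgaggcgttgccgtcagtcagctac
Polq: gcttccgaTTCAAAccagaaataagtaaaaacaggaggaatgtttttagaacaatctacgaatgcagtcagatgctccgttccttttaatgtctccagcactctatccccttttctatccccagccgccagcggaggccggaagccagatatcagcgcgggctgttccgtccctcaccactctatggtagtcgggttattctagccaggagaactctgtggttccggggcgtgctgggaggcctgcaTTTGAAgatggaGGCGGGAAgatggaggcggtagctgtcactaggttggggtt
Chek1: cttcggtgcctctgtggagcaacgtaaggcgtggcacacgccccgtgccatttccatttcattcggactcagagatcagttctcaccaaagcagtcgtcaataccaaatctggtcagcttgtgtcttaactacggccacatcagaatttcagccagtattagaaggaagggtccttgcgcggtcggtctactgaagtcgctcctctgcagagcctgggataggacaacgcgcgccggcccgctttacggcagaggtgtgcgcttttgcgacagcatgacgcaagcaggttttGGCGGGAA
Msh6: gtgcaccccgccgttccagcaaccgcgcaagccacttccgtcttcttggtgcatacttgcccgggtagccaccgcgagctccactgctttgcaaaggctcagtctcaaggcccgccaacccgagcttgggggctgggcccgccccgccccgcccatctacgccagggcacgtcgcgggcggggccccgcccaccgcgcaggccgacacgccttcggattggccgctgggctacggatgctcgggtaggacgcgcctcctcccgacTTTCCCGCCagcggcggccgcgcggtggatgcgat

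In the Msh6 promoter the E2F letters TTTCCCGC begin at position 16 relative to the start site, and in that of Bard1 at -209. Polq holds TTCCCGCC on the opposite strand from base 10 and TTTGAA from base -3. Msh6 holds TTTCCCGC and TTCCCGCC in a single stretch, where they overlap, and had a log2 fold change of 0.14. Neil3 holds none of the E2F sequences searched and had 0.99. The part of these letters in the differences was not tested. The median log2 fold change was 0.58 for the 10 genes with an E2F sequence and 0.25 for the 26 without.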

How the data were processed

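RNA was extracted with Trizol from sorted cells, made into libraries after SMARTer amplification and read from both ends, per the labels' protocols. The submitters' processing notes name Bowtie 0.12.2 and mm9. Which program counted, and how it treated strand and multiple hits, is not given in the sources used here. The authors deposited raw counts, whole numbers for 33018 RefSeq transcripts in each library.

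Each symbol was represented by its transcript with the highest total. The test was that of edgeR 4.0.16 under R 4.3.3, with its default filter, TMM, robust quasi-likelihood fit of NHD13 against WT on all 4 libraries, Benjamini-Hochberg adjustment over 14853 genes. The standard error is the size of a log2 fold change divided by the square root of F. The biological coefficient of variation was 26.9 percent. Medians relative to all libraries used log2(CPM + 0.5). Tested on simulated data of this design, the fit mostly recovered directions, but the share of false calls was above the adjusted p threshold and many 2-fold changes were not called. DESeq2 1.42.0 and limma-voom 3.58.1 were alternatives.

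The members and lists were chosen with earlier results of these data known. Every listed gene could be named; those with values in every library were the 3 with the smallest p per role and any called under some setting, and from other pathway lists those called or the 2 with the smallest p, of which 1 is not reported here. Other values per library (among them Brca1, Rad51c, Rad52, Ogg1 and Fanci), and the partner ratios and printed promoters, were chosen after the values were seen. The RefSeq table gave promoters and GENCODE M21 gave lengths and overlaps, both on GRCm38.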

Additional observations from a re-analysis of the deposited data

How the results depend on the processing

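With 2 libraries per group the number of calls depended on the settings. Against 636 genes called over all genes, 1 repair gene and 1 other pathway gene, there were 1138, 3 and 6 without a filter, 1066, 1 and 3 with a minimum of 1 CPM in each library of at least 1 group, 2604, 16 and 19 by DESeq2 and 402, 1 and 0 with transcripts summed. The share of all genes called was 4.28 percent in the main fit, 5.47 percent without a filter and 8.24 percent with that minimum. It was 17.5 percent by DESeq2 and 2.67 percent with transcripts summed. With library totals only the other pathway genes had 0 calls, against 3.39 percent of all genes. As a replicate block the number in the titles gave 107, 0 and 0 calls, with 16 repair genes at an unadjusted p under 0.05, and Neil3 at 0.99 was then not called. Same-numbered libraries did not deviate together (r = -0.125 across genes). Crossed numbers as a block, added after seeing the data, gave 647, 3 and 0 calls, with 4.36 percent of all genes called. Leaving out 1 library gave 0 to 990 genes over all genes, 0 to 4 repair genes and 0 to 8 other pathway genes by edgeR, and 1 to 11 repair genes by DESeq2 (955 to 2366 over all genes), added after seeing the data. The causes were not tested, beyond that fits on 3 libraries take their spread from 1 group.

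Median log2 fold changes kept their direction in all settings except for end joining, which ranged from -0.04 to 0.21 over the fits on 3 libraries. The ranges were 0.27 to 0.48 for all repair genes (0.265 to 0.4827), 0.44 to 0.84 for homologous repair, 0.24 to 0.29 for mismatch repair, 0.20 to 0.26 for excision repair, 0.55 to 0.92 for S and G2 genes and 0.14 to 0.27 for the other 26. With Exo1 counted as mismatch repair that median was 0.39. Repair genes near 0 changed sign: Nbn (-0.0704 to 0.20), Atm (-0.14 to 0.22), Atrip (-0.15 to 0.14, and 9e-04 by limma-voom), Xrcc6 (-0.11 to 0.21), Lig4 (-0.0803 to 0.12) and Trp53bp1 (-0.0403 to 0.27). Depth limits the least abundant genes: the 3.13 CPM of Lig4 in WT library 1 rested on 136 counts.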
